A study of Mus musculus with 6 samples.

Results

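Genes of MHC class II antigen presentation were compared between pancreas cells with wild-type p120 catenin and pancreas cells labelled as p120 knockout. Of 10 listed genes, 7 had an array row that named that gene alone and are described here: H2-Aa, H2-Ab1, Cd74, H2-Oa, H2-Ob, H2-DMa and Ifi30, out of 20259 genes in all. H2-Eb1, H2-DMb2 and Ciita were named only in rows shared with other genes and were not used. Members were chosen by their names in the pathway, and each was represented by its row of highest mean over the 6 arrays.

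The samples were GFP+ cells sorted from the pancreas of KCiMist1G mice, a model of preinvasive pancreatic cancer, with 3 arrays from p120wt/wt mice and 3 arrays from p120f/f mice. All 6 samples shared the KCiMist1G background, a tamoxifen dose between the ages of 7 and 9 weeks that activated Cre recombinase, and collection 2 weeks later. The labels do not spell out the alleles behind KCiMist1G, nor whether animals were pooled for a replicate, and the p-values cover only the variation among these 6 samples. Mist1, also called Bhlha15, is a transcription factor gene of acinar cells. Values are log2 expression, so a difference of 1 is a doubling of signal.

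MHC class II molecules are heterodimers of an alpha and a beta chain that display peptides from the endocytic route to CD4+ T cells. Dendritic cells, B cells and macrophages make them constitutively, and many epithelial cells, including those of an inflamed pancreas, can be induced to make them by interferon gamma. The invariant chain Cd74 guides new class II molecules to endosomes, where H2-DM loads the peptide and H2-O restrains H2-DM, while the transactivator encoded by Ciita drives transcription of the whole set.

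None of the 7 genes separated the groups, and 5 of them (H2-Aa, H2-Ab1, Cd74, H2-Oa and H2-Ob) shared 1 order over the arrays, here called the class II order. Knockout array 1 was the highest of the 6 arrays for 7 of 7 genes, as it was for 17.6% of all genes. Knockout arrays 2 and 3 both lay below all 3 wild-type arrays for 5 of 7 genes, against 16.8% of all genes. For these 5 genes the wild-type arrays lay between knockout array 1 and the other knockout arrays. No member passed limma's threshold between the groups (0 of 7 at an adjusted p under 0.05, as for 0% of all genes), and 0 of 7 had an unadjusted p under 0.05, against 3.49% of all genes.

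The arrays as a whole set the frame for these values. Pearson's r between arrays ran from 0.95 to 0.986 across 20259 genes, which are not independent replicates. On the first principal component, with 51.7% of the variance, knockout array 1 lay at -38.1 and knockout arrays 2 and 3 at 28.4 and 37.1. The wild-type arrays lay between them, at -8.35, -4.16 and -14.9. The knockout arrays thus stood on both sides of wild type, and results are also given with each array left out in turn. Ctnnd1, which encodes p120 catenin, measured 5.61, 6.61 and 6.38 on the knockout arrays and 5.87, 6.81 and 6.44 on wild-type arrays. These Ctnnd1 values overlapped and did not show the loss of p120, although a row reading outside the deleted part checks nothing, so every direction given is that of the labels.

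**Figure D1:**
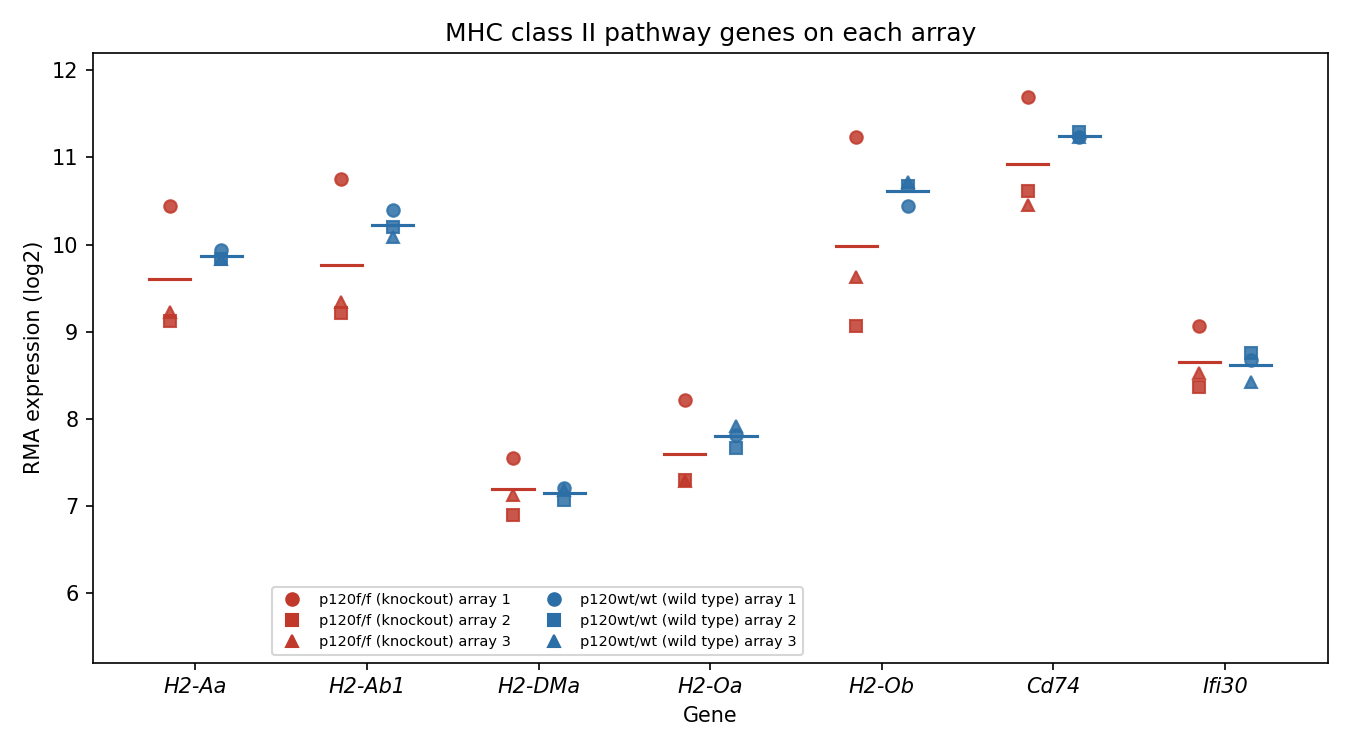
RMA log2 expression (y axis) of the 7 class II pathway genes (x axis) on each of the 6 arrays, with horizontal lines at the group means. Knockout array 1 (red circle) is the highest point for every gene, while the wild-type points spread over 0.06 to 0.34 and the knockout points over 0.66 to 2.18.

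The classical chains were measured first. H2-Aa encodes the alpha chain of the I-A molecule and measured 10.44, 9.12 and 9.23 on knockout arrays 1, 2 and 3, against 9.94, 9.83 and 9.83 on the wild-type arrays. Knockout array 1 lay above and the other knockout arrays below all wild-type values, so the groups overlapped. The means were 9.60 ± 0.73 and 9.87 ± 0.063 (SD, n = 3), a difference of -0.27 (SE 0.33, 95% confidence interval -1.04 to 0.50, limma adjusted p = 0.908). H2-Ab1 encodes the partner beta chain. It measured 10.75, 9.22 and 9.34 in knockout and 10.40, 10.20 and 10.09 in wild type. The order was that of H2-Aa, with array 1 on top and knockout arrays 2 and 3 at the bottom. The difference was -0.46 (SE 0.38, 95% confidence interval -1.35 to 0.44, limma adjusted p = 0.907).

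Cd74, the invariant chain, was the steadiest of the 7 genes among wild-type arrays. Its values were 11.70, 10.62 and 10.46 on the knockout arrays and 11.24, 11.29 and 11.23 on wild-type arrays. The wild-type range of 0.06 compares with 1.24 over the knockout arrays. The groups overlapped again through array 1, and the difference was -0.32 (SE 0.30, 95% confidence interval -1.04 to 0.39, limma adjusted p = 0.907).

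The H2-O chains form the nonclassical dimer that inhibits H2-DM, and are known mainly from B cells and some dendritic cells. H2-Ob, its beta chain, had the widest spread of the 7 genes. It measured 11.24, 9.06 and 9.63 in knockout and 10.44, 10.67 and 10.72 in wild type. Knockout array 1 stood 1.89 above the mean of knockout arrays 2 and 3, a 3.72-fold gap inside 1 group. The group means were 9.98 ± 1.10 and 10.61 ± 0.15 (SD, n = 3), with a difference of -0.64 (SE 0.50, 95% confidence interval -1.80 to 0.52, limma adjusted p = 0.907). H2-Oa, the alpha chain, measured 8.22, 7.30 and 7.28 on the knockout arrays and 7.81, 7.66 and 7.92 on wild-type arrays. The same arrays were high and low, over a narrower range, and the difference was -0.20 (SE 0.26, 95% confidence interval -0.80 to 0.40, limma adjusted p = 0.908).

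H2-DMa and Ifi30 varied least of the 7 genes among the knockout arrays. H2-DMa is the alpha chain of the peptide exchange factor H2-DM and measured 7.55, 6.89 and 7.13 in knockout and 7.20, 7.07 and 7.18 in wild type. Knockout array 3 fell inside the wild-type range here. The difference was 0.041 (SE 0.18, 95% confidence interval -0.38 to 0.46, limma adjusted p = 0.965). Ifi30 encodes a thiol reductase that opens disulfide bonds of proteins in lysosomes before they are cut. It measured 9.07, 8.36 and 8.52 on the knockout arrays and 8.68, 8.75 and 8.42 on wild-type arrays. Apart from knockout array 1 at the top, the groups were interleaved, and the difference was 0.032 (SE 0.20, 95% confidence interval -0.45 to 0.51, limma adjusted p = 0.978). After shifting the arrays to 1 median, H2-DMa (-0.043) and Ifi30 (-0.053) were slightly below 0.

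The mean was lower on the knockout arrays for 5 of 7 genes, against 38.3% of all genes, and the median difference was -0.27, against 0.055 over all genes. All 3 knockout arrays lay to 1 side of all 3 wild-type arrays for 0 of 7 genes, against 8.69% of all genes. The exact two-sided permutation p of single genes ran from 0.4 to 1.0, where 3 arrays against 3 cannot give less than 0.1. The precision differed by gene: the interval was widest for H2-Ob (-1.80 to 0.52) and narrowest for H2-DMa (-0.38 to 0.46).

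The size of these differences depended on which knockout arrays were included. Without knockout array 1 the knockout minus wild-type difference was -0.69 for H2-Aa, -0.95 for H2-Ab1, -0.71 for Cd74, -0.51 for H2-Oa, -1.27 for H2-Ob, -0.14 for H2-DMa and -0.18 for Ifi30. In that fit 5 of 7 genes had an unadjusted p under 0.05, all lower, against 10.8% of all genes lower at that level, and limma's adjusted p for these 5 ran from 0.0509 to 0.0674, so 0 of 7 passed the threshold, as against 0.00987% of all genes. Array weights, which down-weighted knockout array 1, gave 5 of 7 genes lower at an adjusted p under 0.05, against 8.77% of all genes. Without knockout array 2 the differences shrank to -0.033 for H2-Aa, -0.18 for H2-Ab1, -0.17 for Cd74, -0.051 for H2-Oa and -0.18 for H2-Ob, and H2-DMa (0.19) and Ifi30 (0.18) lay above 0. Without knockout array 3 they were -0.088 for H2-Aa, -0.24 for H2-Ab1, -0.091 for Cd74, -0.043 for H2-Oa, -0.46 for H2-Ob, 0.073 for H2-DMa and 0.095 for Ifi30. Leaving out a wild-type array moved the 5 genes less in absolute terms, with H2-Ob between -0.72 and -0.58 and H2-Aa between -0.29 and -0.24. H2-Oa was -0.14 without wild-type array 3, and Ifi30 turned to -0.069 in that fit.

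**Figure D2:**
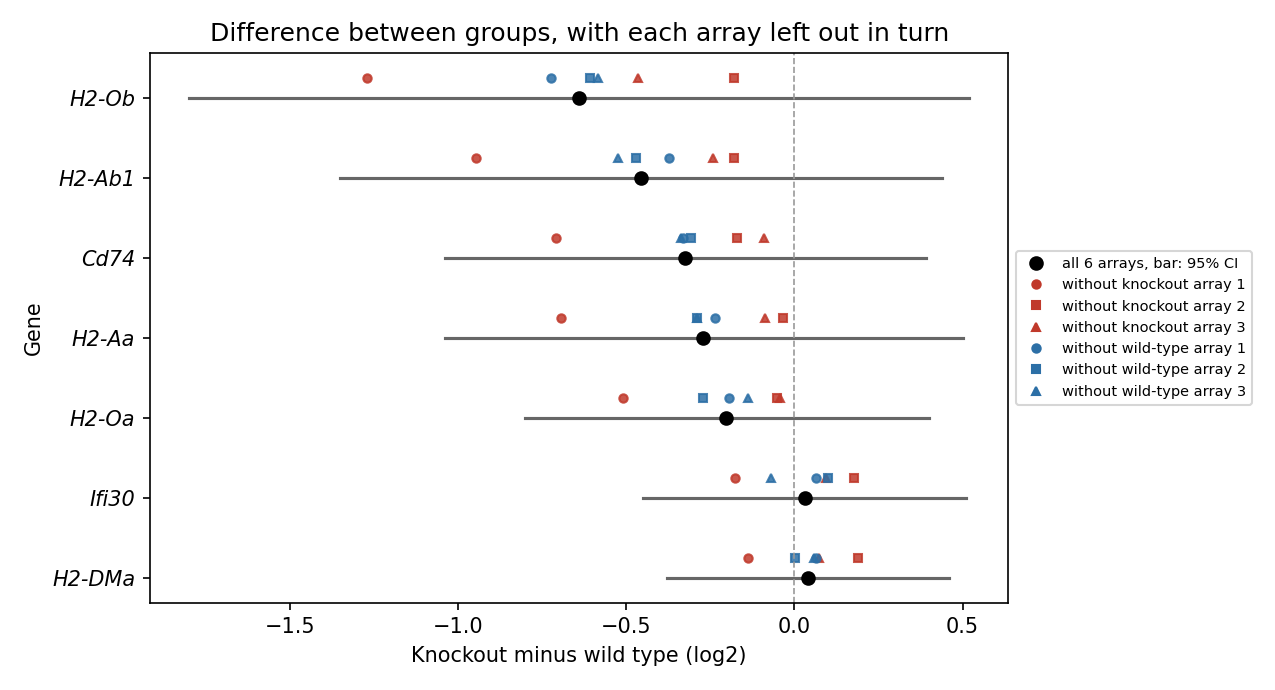
Knockout minus wild-type difference in log2 expression (x axis) of each gene (y axis), with black points and 95% confidence intervals for all 6 arrays and small coloured points for fits that leave out 1 array. Every interval spans 0, and leaving out knockout array 1 (red circles) gives the lowest value for each gene, down to -1.27 for H2-Ob.

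Array by array, the class II genes moved together and to different extents. Over the 21 gene pairs, Pearson's r across the 6 arrays ran from 0.699 for H2-Oa with Ifi30 to 0.988 for H2-Aa with H2-Ab1, with a median of 0.864. These are descriptions over arrays among which the knockout arrays lay far apart, with no p. The chains H2-Aa and H2-Ab1 and the invariant chain Cd74 were the closest set, with r of at least 0.97. By the gap between knockout array 1 and the mean of knockout arrays 2 and 3, the order was H2-Ob (1.89), H2-Ab1 (1.47), H2-Aa (1.27), Cd74 (1.16), H2-Oa (0.93), Ifi30 (0.63) and H2-DMa (0.54). H2-DMa and Ifi30 thus had the smallest gaps, at 1.45-fold and 1.55-fold. H2-DMa was also the member of lowest mean level, at percentile 84.6 of all genes.

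Class II promoters carry a conserved arrangement in which an X box, bound by the RFX complex, lies upstream of a Y box, an inverted CCAAT sequence bound by NF-Y, and Ciita is recruited to the assembled factors. Promoter sequences from RefSeq (GRCm38.p6) were found for H2-Aa, H2-Oa, H2-Ob, H2-DMa and Ifi30 among the genes shown. The 250 bases upstream of each start were searched for GCAAC, the core of the X box, followed on the gene's strand within 40 bases by ATTGG, the core of the Y box. It was present in 3 of these 5 genes, H2-Aa, H2-Oa and H2-Ob, and in 0.746% of 32851 promoter windows of the same length. The letters and spacing were chosen after the promoter sequences were seen, so these shares are a description and no test of enrichment. The 3 sequences are shown as examples of this arrangement in class II genes, with GCAAC and the Y box CTGATTGG (ATTGG alone in H2-Ob) in capitals.
H2-Aa, chr17:34287842-34287924, minus strand: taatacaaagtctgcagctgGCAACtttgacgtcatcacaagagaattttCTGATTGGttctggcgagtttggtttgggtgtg
H2-Oa, chr17:34092283-34092365, plus strand: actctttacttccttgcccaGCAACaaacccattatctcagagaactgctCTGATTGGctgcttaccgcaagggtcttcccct
H2-Ob, chr17:34238798-34238877, plus strand: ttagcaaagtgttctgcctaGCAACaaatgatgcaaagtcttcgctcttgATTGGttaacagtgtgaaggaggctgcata

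The cores were separated by 28 bases in H2-Aa, 28 in H2-Oa and 25 in H2-Ob. The full CTGATTGG, on either strand, was in the windows of H2-Aa and H2-Oa and in 3.83% of all windows. The single cores are common: ATTGG was in 33.8% and GCAAC in 29.9% of all windows on either strand, the ATTGG count including every CTGATTGG. The 2 windows listed for H2-DMa and the window of Ifi30 did not hold the spaced arrangement in these letters. A match in letters is a description, binding was not measured here, and no relation between these letters and the array values was tested.

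Pan-leukocyte, B cell, dendritic cell and neutrophil markers had the class II order of arrays in their means. T and NK cell and macrophage markers had only its lower part, with knockout arrays 2 and 3 below all wild-type arrays. In bulk samples, fewer cells of a type and less RNA per cell cannot be told apart. The sort was for GFP, and whether it left leukocytes out was not tested. Pan-leukocyte genes were bright on these arrays, from percentile 80.8 (Cd52) to 99.1 (Rac2) of mean level among all genes. Lists of other cell types were therefore set beside the members. The mean over the 7 class II genes was 9.85, 8.65 and 8.80 in knockout samples 1 to 3, against 9.39, 9.35 and 9.34 in wild-type samples 1 to 3. The mean over 8 pan-leukocyte genes was 9.24, 8.13 and 8.01 in knockout and 8.81, 8.67 and 8.88 in wild type. Knockout array 1 was highest for 8 of 8 of these leukocyte genes, against 17.6% of all genes. Knockout arrays 2 and 3 lay below all wild-type arrays for 8 of 8, against 16.8% of all genes.

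Ptprc, which encodes the leukocyte surface phosphatase CD45, measured 9.92, 8.61 and 8.38 on the knockout arrays and 9.44, 9.17 and 9.60 on wild-type arrays. The mean over 11 B and plasma cell genes was 9.04, 7.66 and 7.64 in knockout and 8.49, 8.23 and 8.53 in wild type. Array 1 was highest for 11 of 11 of these genes, against 17.6% of all genes. For 11 of 11, knockout arrays 2 and 3 were below all wild-type arrays, against 16.8% of all genes. In both lists the high and low knockout arrays were those of the class II genes. Over 8 dendritic cell genes the mean ran from 5.72 to 6.74 on the knockout arrays and from 6.24 to 6.52 on the wild-type arrays. Zbtb46, a transcription factor of classical dendritic cells, went the other way, with 4.84 on knockout array 1 and 5.29 and 5.32 on knockout arrays 2 and 3. Over 12 macrophage and monocyte genes the mean ran from 6.06 to 7.07 in knockout and from 6.39 to 7.41 in wild type. Here wild-type array 2 was the highest array, at 7.41, which the class II genes did not show. Knockout array 1 was highest for 2 of 12 of these genes, near its share of 17.6% of all genes. Knockout arrays 2 and 3 lay below all wild-type arrays for 7 of 12, against 16.8% of all genes. Over the 11 T and NK cell genes, array 1 was highest for 0 of 11, against 17.6% of all genes. Knockout arrays 2 and 3 were below all wild-type arrays for 10 of 11, against 16.8% of all genes. The mean over these 11 genes was 7.14, 6.64 and 6.61 on the knockout arrays and 7.33, 6.92 and 7.40 on wild-type arrays. Over 10 neutrophil genes, cells that make little class II, the mean was 6.88, 5.62 and 5.62 in knockout and 6.37, 6.49 and 6.23 in wild type, again in the class II order.

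Acinar markers ran the opposite way. Marker means of the other non-leukocyte lists were also lowest among the knockout samples on array 1, whose differences from the average of the other knockout samples were -0.47 for duct genes, -0.44 for fibroblast and stellate genes and -0.55 for endothelial genes. The mean over 9 acinar genes was 10.75 on knockout array 1 but 11.51 on each of the other knockout arrays, with 11.25, 11.34 and 11.35 in wild type. Bhlha15, the Mist1 gene itself, measured 8.61, 9.93 and 10.06 in knockout and 9.66, 9.60 and 9.72 in wild type.

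On each array, the gap between lists was also taken, and the class II mean minus the pan-leukocyte mean varied over a range of 0.33, whereas the class II mean itself varied over 1.20. The same gap varied over 0.35 against B and plasma cell genes, 0.32 against neutrophil genes, 0.47 against dendritic cell genes, 0.77 against T and NK cell genes and 1.01 against macrophage genes. Against acinar genes it varied over 1.96. Relative to the pan-leukocyte mean, the class II mean was 0.07 higher on the knockout arrays than on the wild-type arrays, and relative to dendritic cell genes the same difference was -0.07. The part that leukocyte content had in the class II values was not tested.

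**Figure D3:**
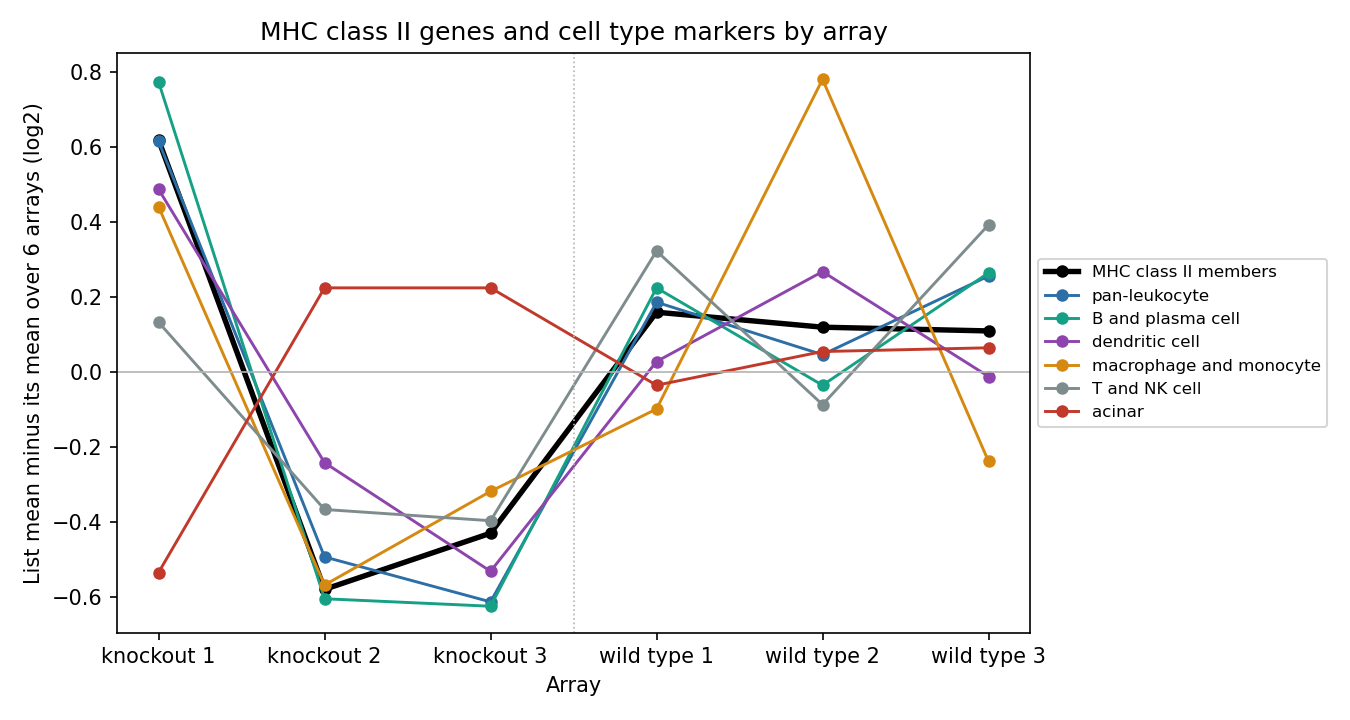
Mean log2 expression of the 7 class II genes (black) and of 6 cell type marker lists, each minus its own mean over the 6 arrays (y axis), by array (x axis). The class II line is close to the pan-leukocyte and B cell lines, from 0.62 on knockout array 1 to -0.58 on knockout array 2. The acinar line is the mirror of the class II line on the knockout arrays. Neutrophil genes, not drawn, were as close. Their gap to the class II mean varied over 0.32, against 0.33 for pan-leukocyte and 0.35 for B and plasma cell genes.

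The rest of the pathway was described from lists of other genes. Of 10 measured transcription factors of class II genes, 0 passed limma's adjusted threshold and 0 had an unadjusted p under 0.05, against 3.49% of all genes. The median difference of that list was -0.083. The mean over these 10 genes had the class II order, with 7.36, 6.79 and 6.84 in knockout and 6.99 to 7.24 in wild type. Knockout array 1 was highest for 6 of 10, against 17.6% of all genes. Knockout arrays 2 and 3 lay below all wild-type arrays for 6 of 10, against 16.8% of all genes. Rfxap, a subunit of the RFX complex that binds the X box, measured 6.11, 6.20 and 6.24 in knockout and 6.30, 6.44 and 6.49 in wild type. Its groups did not overlap, as for 8.69% of all genes, and the difference was small (-0.23, SE 0.12, limma adjusted p = 0.907). Rfxap also did not follow the class II pattern, since knockout array 1 was its lowest array. Creb1, a factor that binds beside RFX, differed by -0.28 (SE 0.20). Spib, an ETS factor of B cells and plasmacytoid dendritic cells, differed by -0.38 (SE 0.34) and had the class II order, with 9.25, 7.97 and 7.89 on the knockout arrays and 8.65 to 8.83 on wild-type arrays.

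Interferon gamma induces Ciita, and 10 genes of its signalling had a mean below wild type in 10 of 10 cases, against 38.3% of all genes. Their median difference was -0.25, none passed limma's adjusted threshold, and 1 of 10 had an unadjusted p under 0.05, against 3.49% of all genes. That gene was Irf1, an interferon-induced transcription factor that takes part in the induction of Ciita. Irf1 measured 7.55, 7.19 and 7.04 in knockout and 7.70, 7.62 and 7.78 in wild type, without overlap, as for 8.69% of all genes. The difference was -0.44 (SE 0.16, limma adjusted p = 0.907). Unlike the class II genes, Irf1 on knockout array 1 stayed below every wild-type array. The mean over the 10 interferon gamma genes did have the class II order, with 7.68, 7.12 and 6.85 in knockout and 7.44 to 7.52 in wild type. Knockout array 1 was highest for 6 of 10 of these genes, against 17.6% of all genes. Knockout arrays 2 and 3 lay below all wild-type arrays for 9 of 10, against 16.8% of all genes. Ifng, the cytokine gene itself, differed by -0.48 (SE 0.22) and Gbp2, an interferon-induced GTPase, by -0.54 (SE 0.30), with 7.47, 6.69 and 6.19 for Gbp2 on the knockout arrays and 7.26 to 7.43 on wild-type arrays. Ifng is a product of T and NK cells, whose marker genes were below wild type in 11 of 11 cases, against 38.3% of all genes, with a median of -0.37. The part of those cells in the interferon values was not tested.

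Genes that cut, load and turn over class II cargo in endosomes had a median difference of -0.015 over 13 genes. Of these, 0 passed the adjusted threshold and 2 of 13 had an unadjusted p under 0.05, both lower, against 3.49% of all genes in either direction. They were Ctsl (-0.94, SE 0.19), the protease that trims the invariant chain in thymic epithelium, and Sppl2a (-0.28, SE 0.11), the membrane protease that removes its last fragment in B cells. Sppl2a measured 7.60, 7.57 and 7.70 in knockout and 7.87, 7.85 and 7.99 in wild type. Its groups did not overlap, as for 8.69% of all genes, and array 1 did not stand out. Ctss, the protease that trims the invariant chain in B cells and dendritic cells, had the class II order instead. It measured 8.29, 7.11 and 7.04 on the knockout arrays, with a wild-type mean of 7.85. Ctss was chosen with its values known. Cst3, the cathepsin inhibitor cystatin C, differed by 0.16 (SE 0.13).

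Costimulatory genes, which antigen-presenting cells need beside class II to activate T cells, had a median difference of -0.087 over 10 genes. Of these, 0 of 10 had an unadjusted p under 0.05, against 3.49% of all genes. Knockout array 1 was highest for 7 of 10, against 17.6% of all genes. Cd86, a ligand of CD28, measured 9.79, 8.34 and 8.15 in knockout and 8.57 to 8.83 in wild type, and Cd80 measured 7.83, 6.22 and 6.19 against 6.62 to 6.93. Cd80 and Cd86 were picked out after their values were seen. Both had the class II order. By the smallest p-values, Icam1, an adhesion ligand of T cells, differed by -0.37 (SE 0.25), the cytokine gene Tnfsf9 by -0.27 (SE 0.26) and Cd48, a leukocyte surface ligand of CD2, by -0.30 (SE 0.30).

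MHC class I presentation, which every nucleated cell carries out, was measured without its heavy chains H2-K1, H2-D1 and H2-T23, and without Nlrc5. The 10 genes of this list that were measured moved less from array to array, and the heavy chains were not compared. The mean over 10 class I pathway genes ran from 7.30 to 7.67 on the knockout arrays and from 7.45 to 7.68 on the wild-type arrays. The median difference of this list was -0.10, and 0 of 10 had an unadjusted p under 0.05, against 3.49% of all genes. B2m, the light chain of class I molecules, measured 8.01, 7.49 and 7.34 in knockout and 7.93, 8.01 and 8.21 in wild type, a difference of -0.44 (SE 0.19). Pdia3 (-0.16, SE 0.12) and Calr (-0.18, SE 0.14), chaperones of the loading complex, followed. Of further class II locus genes only H2-Ea, the alpha chain of the I-E molecule, had a row of its own. It stayed between 3.16 and 3.47 on all 6 arrays and did not have the class II order, knockout array 2 being the highest. Mouse strains of the b haplotype are known to lack H2-Ea transcripts, and the labels do not give the strain.

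**Figure D4:**
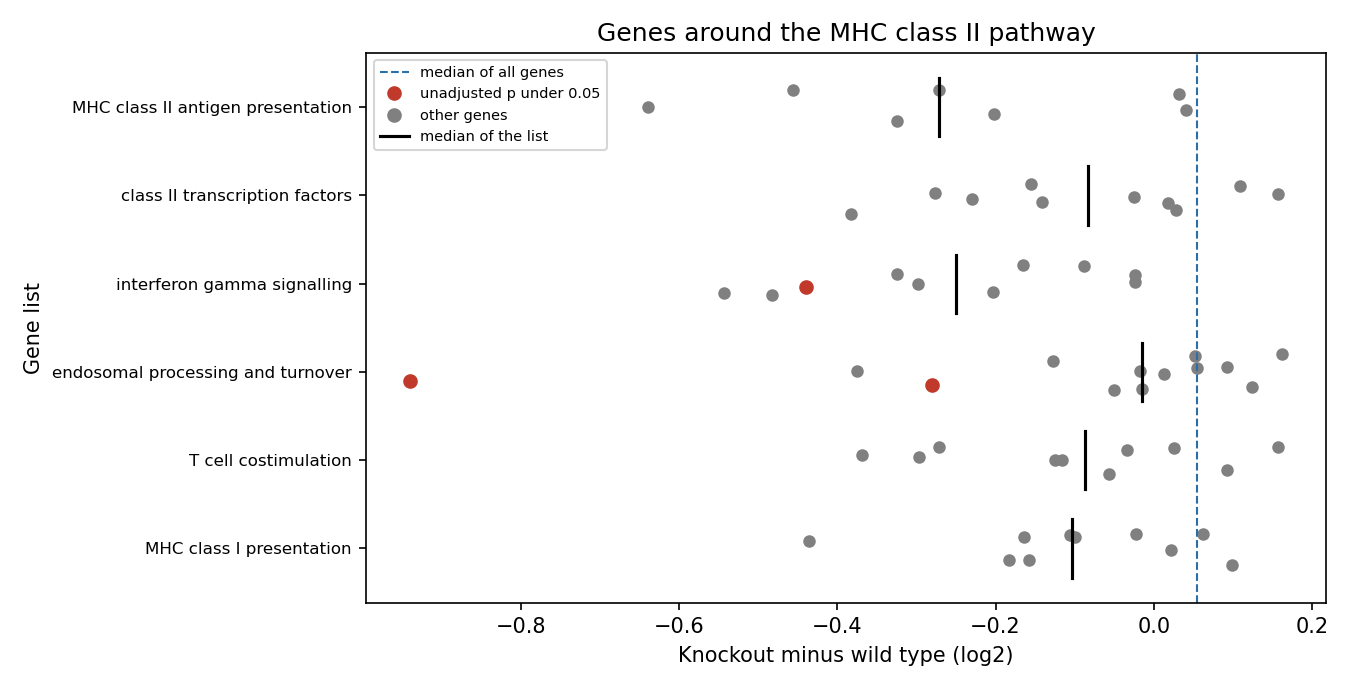
Knockout minus wild-type difference in log2 expression (x axis) of each measured gene of 6 lists (y axis), with black bars at list medians, a dashed line at the median of all genes (0.055) and red points for an unadjusted p under 0.05. Among the 6 lists drawn, the class II and interferon gamma lists have the lowest medians, -0.27 and -0.25. The red points are Irf1, Ctsl and Sppl2a. Cell type lists, not drawn, had medians from -0.44 (fibroblast and stellate) to 0.081 (duct), with -0.277 for pan-leukocyte and -0.265 for B and plasma cell genes.

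The genes most like the class II set were sought among 863 named genes with a standard deviation of at least 0.5 over the arrays, by Pearson's r with the mean class II profile across the 6 arrays. The 10 closest were Slfn2, Btk, Rab8b, Plxnc1, Atp2b1, Casp1, Blnk, Cybb, P2ry10b and Fxyd5, with r from 0.985 to 0.993. In all, 183 of the 863 had an r above 0.9 and 77 an r below -0.9, so a close match was common on these arrays. Btk, the kinase downstream of the B cell receptor, measured 7.81, 6.31 and 6.43 on the knockout arrays and 7.02 to 7.14 on wild-type arrays. Blnk, the adaptor of the same receptor, measured 8.59, 7.27 and 7.28 against 7.97 to 8.20. Cybb, the oxidase subunit of phagocytes, measured 9.83, 7.68 and 7.76 against 8.76 to 9.06. Without knockout arrays 2 and 3, the arrays farthest from the median of the class II profile, r for these 10 genes was 0.951 to 0.992 over 4 arrays. Those 4 arrays were knockout array 1, at 0.62 in the centred class II profile, and the wild-type arrays, at 0.11 to 0.16. That r was largely set by knockout array 1 and by the choice of the genes, so it is no separate check.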

How the data were processed

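Expression on a log2 scale was deposited by the authors as a single table of 115830 rows by 6 arrays. RMA and Partek are named per the submitters' processing notes, with no versions, and the genome build is not given in the sources used here. RMA corrects background and normalizes between arrays, and it compresses differences of dim genes. The table holds no detection calls, scan dates or slides, so signal over background and batches were not tested, and 3 arrays per group limit the precision. Rows with 1 symbol in the platform annotation (25539) gave 20259 genes, while 2300 rows named several genes and 87991 were unnamed here. Rows can also read close paralogs of the H2 genes.

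Knockout minus wild type was estimated gene by gene on the whole table (limma 3.58.1 under R 4.3.3, lmFit and eBayes, no block, no filter), with Benjamini-Hochberg adjustment over 20259 genes and a threshold of 0.05. Single genes were also compared by an exact permutation test. Alternatives were other normalizations, row choices, filters, variance models, array weights, leaving out single arrays and a replicate block. The script was tested on simulated data. Members and lists were chosen with earlier results of these data known, and the promoter letters and spacing after the promoter sequences were seen. By rule the text names all members, up to 3 genes per list by p-value, and the 10 closest profiles; Ctss, Cd80 and Cd86 were added after their values were seen. Same-numbered arrays did not deviate together (r of deviations 0.041, 0.14 and -0.15), so the numbers were not taken as pairs.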

Additional observations from a re-analysis of the deposited data

How the results depend on the processing

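Under 17 alternatives, 5 of the 7 genes (H2-Aa, H2-Ab1, Cd74, H2-Oa and H2-Ob) stayed below wild type in each. No member passed limma's adjusted threshold under 16 of them. With array weights, 5 members passed, all lower (limma adjusted p from 0.0248 to 0.0295, against 8.77% of all genes lower). In that fit 5 members had an unadjusted p under 0.05, against 43.1% of all genes in either direction. That fit put a weight of 8.57 on knockout array 2 and 0.142 on knockout array 1, and its weights did not converge fully. With 1 array left out, the count at an unadjusted p under 0.05 ran from 0 to 5. The 5 were without knockout array 1, against 29.3% of all genes in either direction in that fit. The median difference with 1 array left out ran from -0.69 to -0.051, and it was -0.16 after a further quantile normalization. H2-DMa turned below 0 with arrays shifted to 1 median (-0.043), array weights (-0.23) and without knockout array 1 (-0.14). Ifi30 did so in the same fits (-0.053, -0.24 and -0.18) and without wild-type array 3 (-0.069). With 1 array left out, H2-DMa ran from -0.14 to 0.19 and Ifi30 from -0.18 to 0.18. With the replicate block 0 members passed and the median stayed at -0.27, with no call changed. Why these values moved was not tested.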
